A study of Homo sapiens with 3 samples.

Results

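Beta-oxidation is the breakdown of fatty acids in cycles that each release acetyl-CoA. For this pathway and related steps of fatty acid and ketone body metabolism, 32 genes were followed across the 3 RNA-seq libraries of the study. They were taken out of 25270 gene symbols with a deposited value. The 32 genes were chosen by function, with earlier results of these data known. They cover the regulator PPARA, fatty acid uptake, binding and storage, acyl-CoA synthetases and the carnitine shuttle. The others belong to mitochondrial and peroxisomal enzymes, electron transfer and ketone body enzymes. All 32 symbols were found in the files. The libraries came from HepG2, a human hepatocellular carcinoma cell line, and there was 1 library for each of 3 conditions. The parental HepG2 cells were untreated. The HepG2/metR cells are described as HepG2 cells that had survived metformin, an inhibitor of complex I of the respiratory chain, given for more than 5 months. The remaining library was from such HepG2/metR cells given oxamate, an inhibitor of lactate dehydrogenase, at 40 mM for 24 h. Both HepG2/metR libraries therefore carry the same history of selection, and whether these cells were a single clone or were kept in metformin until RNA extraction is not given in the sources used here. The study used this lactate-rich model to look for genes behind cell motility that respond to lactate, and fatty acid oxidation is a fuel pathway beside glycolysis.

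In hepatocytes, fatty acids bound to FABP1 are joined to coenzyme A by acyl-CoA synthetases, passed to carnitine by CPT1 at the outer mitochondrial membrane, carried inside by SLC25A20 and passed back to coenzyme A by CPT2. Each cycle in the matrix then uses a dehydrogenase, a hydratase, a second dehydrogenase and a thiolase, and electrons from the acyl-CoA dehydrogenases leave through ETFA and ETFB to ETFDH. Peroxisomes shorten very long and branched fatty acids with their own set of enzymes. The liver turns spare acetyl-CoA into ketone bodies, and PPARA is the nuclear receptor that switches on many of these genes during fasting.

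Values are FPKM, fragments per kilobase of transcript and per fixed number of fragments sequenced, so that levels can be compared between genes. Differences between libraries are given as log2(FPKM + 1), where the added 1 makes changes of low genes look smaller than they are. With n = 1 per condition no difference has a replicate check, no test was made, and each value describes these libraries only. Of the 32 genes, 31 had a mean of at least 1 FPKM over the libraries and were counted, against 12192 of all genes. The gene that was not kept was ACADL, the long-chain acyl-CoA dehydrogenase, at 0.0179 FPKM in the parental library, 0.237 in that of HepG2/metR and 0.188 after oxamate. CD36, FABP1, ACSL5, ACOX2 and BDH1 were kept through the parental library alone, at under 1 FPKM in both others, so these 5 genes had to differ once they were kept.

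The 3 libraries were alike in the number of genes at 1 FPKM or more, 11339, 11396 and 11631 in parental, HepG2/metR and oxamate-treated cells, and the smallest values put both HepG2/metR libraries at 1.21 and 1.24 times the parental depth. The liver origin of HepG2 showed in its defining markers in the parental library, and these were nearly absent from the other libraries. Of 16 liver markers, 14 were under 1 FPKM in both HepG2/metR libraries, and TTR was listed at 0 in both. The summed level of the 16 was 36534 FPKM in parental cells, 15.0 in HepG2/metR and 12.3 with oxamate. At least 2-fold lower in HepG2/metR were 5 of 7 epithelial markers kept, whereas KRT8 and KRT18 were at 897 and 787 FPKM. Of 9 mesenchymal markers kept, 4 were at least 2-fold higher and 2 at least 2-fold lower. The metformin selection, the low level of liver markers and any difference between the cultures cannot be told apart in this design. The identity of the HepG2/metR culture was not tested. In bulk RNA, fewer cells of a type and less RNA per cell cannot be told apart either.

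Most of the genes followed stood lower in HepG2/metR, with 27 of 31 genes kept below the parental level. Past 2-fold downwards were 16 of these 31, or 51.6%, against 17.6% of all genes kept. One gene, CPT1A, was at least 2-fold higher, or 3.23% of the genes, against 16.6% of all genes kept. Leaving aside the 5 genes kept through the parental library alone, 11 of the other 26 were at least 2-fold lower. The 17.6% of all genes kept leaves out no such genes, so it is not a matching share for this count. The median log2 difference of the 31 genes was -1.24, beside 0.01 over all genes kept. PPARA lay just short of 2-fold at -0.996, and ECI1 was the nearest gene past it at -1.24.

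**Figure D1:**
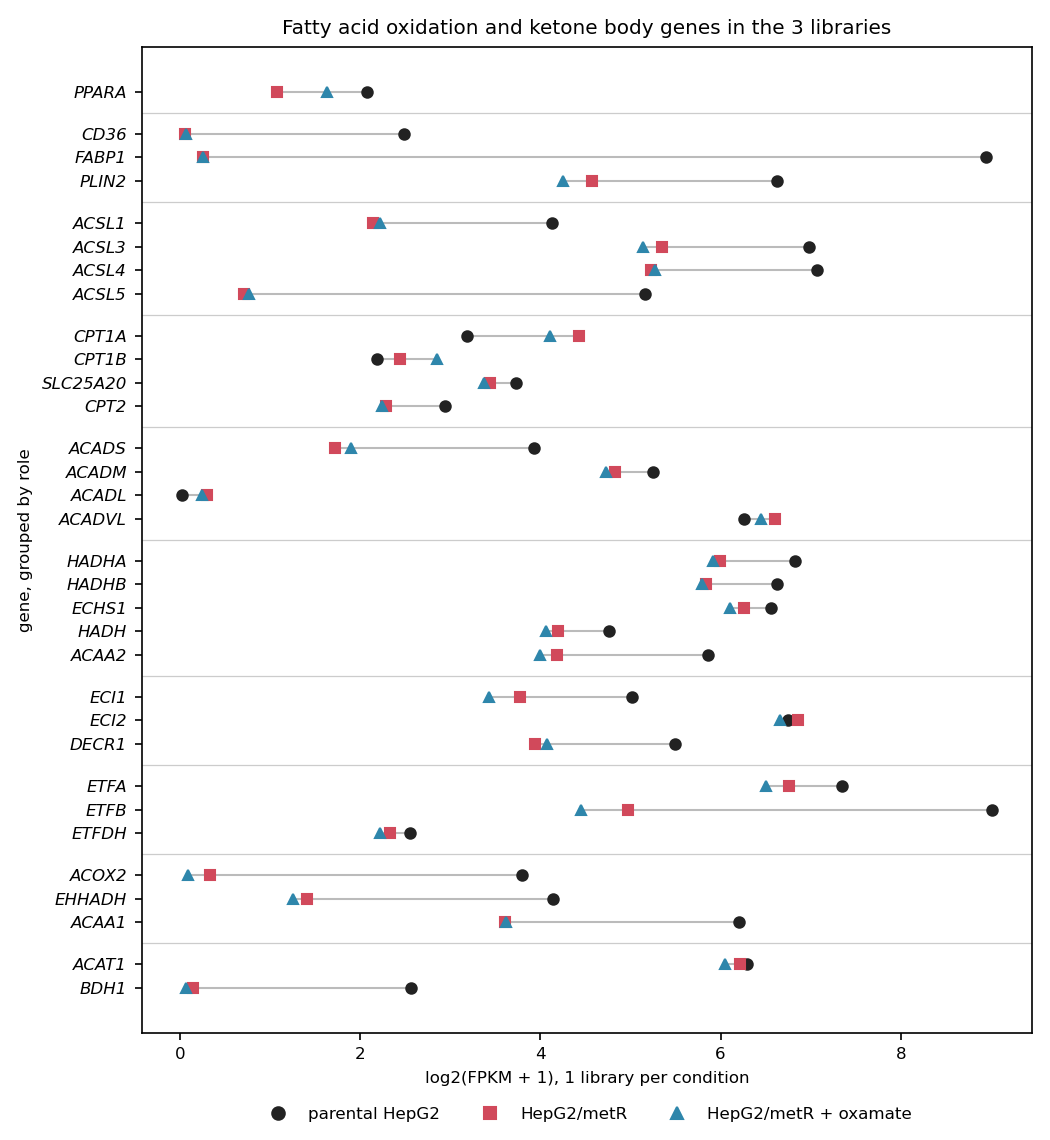
Level of each of the 32 genes on the log2(FPKM + 1) axis, grouped by role from PPARA at the top to the ketone body enzymes at the bottom, with 1 point per library. For most genes the HepG2/metR and oxamate-treated points lie close together, and both lie far left of the parental point for genes such as FABP1 (490 FPKM in parental cells, 0.20 in both others), ETFB and ACSL5, while for CPT1A both lie to the right.

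The summed level of the 32 genes was 2494 FPKM in the parental library, 868 in that of HepG2/metR and 776 after oxamate. As a share of the library's summed FPKM this was 0.444%, 0.162% and 0.164%. Most of the difference from parental cells lay in FABP1 and ETFB, and without these genes the sums were 1492, 837 and 755 FPKM. The order of the genes changed as well. ETFB and FABP1 were the highest members in parental cells, at 513 and 490 FPKM, followed by ETFA, ACSL4 and ACSL3. In HepG2/metR cells the highest were ECI2, ETFA and ACADVL, at 115, 107 and 96.2 FPKM, and these neighbours in the order are not known to differ, because their spread was not measured.

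The 3 genes of uptake, binding and storage were each more than 2-fold below parental cells in HepG2/metR. FABP1, the abundant fatty acid binding protein of hepatocytes, was listed at 490 FPKM in the parental library, 0.20 in that of HepG2/metR and 0.20 after oxamate. Its log2 difference of -8.68 was the lowest among the members. CD36, a fatty acid receptor of the cell surface, was at 4.61, 0.0434 and 0.0453 FPKM. PLIN2, which coats lipid droplets, was at 97.5, 22.8 and 18.1 FPKM and so remained well expressed at a log2 difference of -2.05. FABP1 is itself a liver gene. Its low level came with that of the 16 liver markers, whose part in these differences was not tested.

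The promoter of FABP1 is shown because this member had the largest difference. It lies at chr2:88128013-88128312 on the minus strand of GRCh38.p14 (RefSeq), from 250 bases before the start of transcription to 50 after, and is printed 5′ to 3′. Capitals mark the half-site of nuclear receptors, AGGTCA on either strand, which occurs at 2 positions, and the TATA box letters TATAAA.
FABP1: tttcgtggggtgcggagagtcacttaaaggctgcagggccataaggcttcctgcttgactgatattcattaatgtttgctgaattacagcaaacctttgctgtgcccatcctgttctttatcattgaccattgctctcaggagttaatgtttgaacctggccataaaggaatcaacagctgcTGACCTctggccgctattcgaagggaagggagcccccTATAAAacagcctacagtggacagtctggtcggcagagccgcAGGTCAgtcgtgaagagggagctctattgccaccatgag
AGGTCA was present in 13.8% of all 35116 promoter windows of this length and in 2 of the 43 windows of the 26 members matched, the other being of ACSL5. TATAAA was present in 11.5% of all windows. The DR1 element, a direct repeat of AGGTCA spaced by a single base to which PPARA binds as a dimer with RXRA, was found in 0.0228% of all windows and in 0 of the 43 member windows, which says only that these letters are not in these windows.

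The acyl-CoA synthetases, which activate free fatty acids, were lower as a family. ACSL4, which favours arachidonic acid, was listed at 133 FPKM in the parental library, 36.6 in that of HepG2/metR and 37.5 after oxamate. ACSL3, which acts at the endoplasmic reticulum and on lipid droplets, was at 125, 39.7 and 34.2 FPKM. ACSL1, the main form in liver for oxidation and triglyceride synthesis, was at 16.4, 3.40 and 3.67 FPKM. The differences between HepG2/metR and parental cells of these 3 genes ranged from -1.99 for ACSL1 to -1.63 for ACSL3. With a pseudocount of 0.1 the range was wider, from -2.24 for ACSL1 to -1.65 for ACSL3. ACSL5 stood apart, at 34.8 FPKM in the parental library, 0.641 in that of HepG2/metR and 0.699 after oxamate, a log2 difference of -4.45. ACSL5 overlaps ZDHHC6, at 21.5, 26.4 and 28.3 FPKM, in the RefSeq gene order, and whether the authors counted reads by strand is not given in the sources used here. Summed over the family, the level was 309, 80.3 and 76.0 FPKM. ACSL3 and ACSL4 together held 83.4% of it in parental cells and 94.96% in HepG2/metR cells, and the share of ACSL5 went from 11.3% to 0.799%.

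In the carnitine shuttle none of the 4 genes was past 2-fold downwards, and CPT1A was past it upwards. CPT1A, the liver form of the enzyme that limits the entry of fatty acids into mitochondria, was listed at 8.10 FPKM in the parental library, 20.5 in that of HepG2/metR and 16.2 after oxamate, a log2 difference of 1.24. CPT1B, the muscle form, was at 3.57, 4.43 and 6.21 FPKM, and a read-through transcript with its neighbour, CHKB-CPT1B, was at 0.265, 0.941 and 1.40 FPKM, so reads could be split between them. SLC25A20, the carrier that exchanges acylcarnitine for carnitine, was at 12.3, 9.83 and 9.39 FPKM. CPT2, on the inner membrane, was at 6.71, 3.89 and 3.73 FPKM. CPT2 differed by -0.66 and CPT1B by 0.25, both within 2-fold. The level of CPT1A was 1.21 times that of CPT2 in parental cells, 5.27 times in HepG2/metR and 4.35 times in oxamate-treated cells.

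The mitochondrial enzymes of the cycle differed unevenly. Among the 3 acyl-CoA dehydrogenases kept of the members, the enzyme for very long chains had the highest level and the one for short chains the lowest. ACADVL, for very long chains, was listed at 75.7 FPKM in the parental library, 96.2 in that of HepG2/metR and 86.3 after oxamate. ACADVL overlaps DLG4, at 1.003, 8.52 and 12.4 FPKM. ACADM, for medium chains, was at 37.1, 27.3 and 25.4 FPKM, a log2 difference of -0.43. ACADS, for short chains, was at 14.3, 2.30 and 2.72 FPKM, a log2 difference of -2.21. ACADS alone of the 3 was past 2-fold.

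The later steps of the cycle were lower in HepG2/metR for all 5 genes, of which ACAA2 was past 2-fold. HADHA and HADHB encode the alpha and beta subunits of the mitochondrial trifunctional protein, which carries out hydration, dehydrogenation and thiolysis of long chains. HADHA was listed at 112 FPKM in the parental library, 62.4 in that of HepG2/metR and 59.4 after oxamate, and HADHB at 97.7, 56.0 and 54.4 FPKM. The log2 differences of the subunits, -0.83 and -0.79, were alike, and the level of HADHA was 1.15, 1.11 and 1.09 times that of HADHB in the 3 libraries. ECHS1, the short-chain hydratase, was at 93.0, 75.5 and 67.9 FPKM. HADH, the short-chain hydroxyacyl-CoA dehydrogenase, was at 26.2, 17.4 and 15.7 FPKM. ACAA2, the mitochondrial thiolase, was at 57.3, 17.1 and 14.9 FPKM, a log2 difference of -1.68.

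The trifunctional protein genes are transcribed away from each other from starts 307 bases apart in RefSeq, so their promoter windows share 194 bases. The shared stretch is shown because the levels of both genes ran in parallel. It lies at chr2:26244689-26244882 of GRCh38.p14 and is printed 5′ to 3′ on the plus strand, the strand of HADHB. Capitals mark the GC box letters GGGCGG on either strand.
HADHA and HADHB: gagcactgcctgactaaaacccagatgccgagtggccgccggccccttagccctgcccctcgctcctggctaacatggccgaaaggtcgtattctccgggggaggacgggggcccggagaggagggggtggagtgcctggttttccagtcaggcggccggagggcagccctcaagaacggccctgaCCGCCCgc
GGGCGG was found at 1 position in the shared stretch. It was present in 45% of all promoter windows and in 24 of the 43 windows of members.

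Enzymes that prepare unsaturated fatty acids for the cycle did not move together. ECI1, a mitochondrial enoyl-CoA isomerase, was listed at 31.3 FPKM in the parental library, 12.7 in that of HepG2/metR and 9.80 after oxamate. DECR1, the 2,4-dienoyl-CoA reductase, was at 44.0, 14.4 and 15.8 FPKM. ECI2, an isomerase found in mitochondria and peroxisomes, was at 107, 115 and 99.7 FPKM. ECI1 and DECR1 were past 2-fold downwards in HepG2/metR, at -1.24 and -1.55, whereas ECI2 differed by 0.10.

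The subunits of the electron transfer flavoprotein did not run in parallel. ETFA and ETFB form a heterodimer of 1 subunit each, which takes electrons from the acyl-CoA dehydrogenases. ETFA was listed at 162 FPKM in the parental library, 107 in that of HepG2/metR and 89.4 after oxamate. ETFB was at 513, 30.5 and 20.9 FPKM. The level of ETFB was 3.16 times that of ETFA in parental cells, 0.284 times in HepG2/metR and 0.234 times in oxamate-treated cells. The more abundant partner in parental cells was thus the scarcer one in both other libraries. The log2 differences were -0.59 for ETFA and -4.03 for ETFB. ETFDH, which passes the electrons on to ubiquinone, was at 4.88, 4.05 and 3.68 FPKM. ETFDH overlaps PPID, at 51.8, 21.8 and 23.7 FPKM.

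The promoters of ETFA and ETFB are shown because the partners differed. That of ETFA lies at chr15:76311420-76311719 on the minus strand and the upstream one of 2 for ETFB at chr19:51366339-51366638 on the minus strand, both of GRCh38.p14 and printed 5′ to 3′. Capitals mark the CCAAT box on either strand, with 2 matches in each.
ETFA: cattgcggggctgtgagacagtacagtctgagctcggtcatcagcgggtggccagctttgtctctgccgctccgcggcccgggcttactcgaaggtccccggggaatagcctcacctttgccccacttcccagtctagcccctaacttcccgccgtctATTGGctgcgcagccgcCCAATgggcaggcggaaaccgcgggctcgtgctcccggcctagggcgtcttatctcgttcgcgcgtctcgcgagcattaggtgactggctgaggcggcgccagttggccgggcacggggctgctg
ETFB: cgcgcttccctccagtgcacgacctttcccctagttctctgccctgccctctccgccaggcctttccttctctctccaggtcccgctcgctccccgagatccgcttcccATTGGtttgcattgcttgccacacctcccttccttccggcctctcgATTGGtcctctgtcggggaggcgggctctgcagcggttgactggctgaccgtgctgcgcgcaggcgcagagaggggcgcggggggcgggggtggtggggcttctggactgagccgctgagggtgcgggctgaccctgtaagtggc
CCAAT was present in 34.6% of all promoter windows. CG pairs numbered 29 in the window of ETFA and 22 in that of ETFB. The other window of ETFB held 8 CG pairs and no CCAAT.

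The 3 peroxisomal members were all past 2-fold downwards, from -3.46 to -2.59. ACOX2, the oxidase for branched chains and bile acid intermediates, was listed at 12.9 FPKM in the parental library, 0.258 in that of HepG2/metR and 0.0630 after oxamate. EHHADH, the bifunctional enzyme, was at 16.6, 1.66 and 1.38 FPKM. ACAA1, the peroxisomal thiolase, was at 72.6, 11.2 and 11.3 FPKM. The median log2 difference of the 3 genes was -2.72, with ACOX2 kept through the parental library alone. The median was -0.69 for the 14 mitochondrial members kept of beta-oxidation and electron transfer, of which 5 were at least 2-fold lower. Over the 14 peroxisomal genes kept in this list and in a second list of other pathway genes, 14 were below 0 in HepG2/metR. Past 2-fold were 9 of them, and the median was -1.27, beside 0.01 over all genes kept. The 5 mitochondrial enzymes of the second list, not pooled here, had a median of 0.24, with 1 past 2-fold downwards. Of all genes kept, 17.6% were at least 2-fold lower.

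Of the ketone body enzymes, ACAT1, the mitochondrial acetoacetyl-CoA thiolase, was nearly level at 77.4 FPKM in the parental library, 73.2 in that of HepG2/metR and 65.3 after oxamate. BDH1, which interconverts acetoacetate and 3-hydroxybutyrate, was at 4.90, 0.108 and 0.0528 FPKM, a log2 difference of -2.41. OXCT1, which lets tissues other than liver use ketone bodies, differed in the opposite direction, at 3.18 FPKM in the parental library, 23.2 in that of HepG2/metR and 17.2 after oxamate, a log2 difference of 2.54. BDH2, a cytosolic dehydrogenase, was at 7.76, 1.39 and 1.53 FPKM. In HepG2/metR, OXCT1 was thus higher, both dehydrogenases were lower and ACAT1 was nearly level.

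PPARA itself was low throughout, at 3.23 FPKM in the parental library, 1.12 in that of HepG2/metR and 2.10 after oxamate. Its log2 difference was -0.996 between HepG2/metR and parental cells and 0.55 with oxamate, each just short of the fold that counts. At these low levels the pseudocount matters, and with a pseudocount of 0.1 PPARA passed the fold in both comparisons.

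With oxamate no member kept was past 1.5-fold, but few genes were in either direction, so this count is close to the background. At least 1.5-fold higher were 0 of the 31 genes kept, against 4.31% of all genes kept, and at least 1.5-fold lower were 0 of 31, against 3.82%. The differences ran from -0.52 for ETFB to 0.55 for PPARA, where 1.5-fold is 0.58 on this scale. The median absolute log2 difference was 0.15, beside 0.21 over all genes kept. The median of the 31 genes was -0.10, beside 0.02 over all genes kept. The summed FPKM of the whole library was lower with oxamate, at 473773 against 534646, and with a common total both medians shifted, to 0.029 and 0.17. After PPARA and ETFB, the largest differences were those of CPT1B at 0.41, ECI1 at -0.34, CPT1A at -0.32 and PLIN2 at -0.32. FABP1 was at 0.20 FPKM in both libraries. Because the HepG2/metR library enters both comparisons, their values are set side by side and no relation between them is given.

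A second list held 55 other genes of fatty acid and ketone metabolism, of which 43 were kept. In HepG2/metR, 15 of the 43, or 34.9%, were at least 2-fold lower, against 17.6% of all genes kept. At least 2-fold higher were 5, or 11.6%, against 16.6%. The median log2 difference was -0.58. Of those lower, PPARGC1A and CREB3L3 were kept through the parental library alone and so had to differ. Of those higher, MGLL and ANGPTL4 were under 1 FPKM in parental cells and were kept through the HepG2/metR libraries. Among the well expressed genes that were lower, ACADSB, for short branched chains, was listed at 46.6 FPKM in the parental library, 3.96 in that of HepG2/metR and 5.21 after oxamate. PECR, a peroxisomal enoyl-CoA reductase, was at 47.4, 5.03 and 5.96 FPKM. ABCD3, a peroxisomal importer, was at 63.1, 26.8 and 25.6 FPKM. ACSF2, a further acyl-CoA synthetase, was at 28.9, 9.90 and 14.4 FPKM, and LIPA, the lysosomal acid lipase, at 62.6, 29.6 and 31.2 FPKM. Past 2-fold downwards were 1 of the 5 mitochondrial enzymes kept and 6 of the 11 peroxisomal ones. LIPA, at -1.05, came to -0.91 under upper-quartile scaling and -0.98 with a common total, short of 2-fold.

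The 5 higher genes were OXCT1, MGLL, FABP5, ANGPTL4 and SLC27A1, the last 2 of which were named after their values were seen. MGLL, which frees fatty acids from monoacylglycerols, was listed at 0.0304 FPKM in the parental library, 33.2 in that of HepG2/metR and 34.0 after oxamate. FABP5, the epidermal fatty acid binding protein, was at 84.4, 189 and 104 FPKM, while FABP1 was at 0.20 FPKM in both HepG2/metR libraries. Processed copies of FABP5 elsewhere in the genome could share its reads. Of the 5 genes of this list with the highest mean FPKM over the libraries, all but FABP5 were within 2-fold in HepG2/metR, with HSD17B10 at 0.32, PLIN3 at 0.38, HSD17B4 at -0.91 and SCP2 at -0.58. HSD17B10 is a mitochondrial hydroxyacyl-CoA dehydrogenase, PLIN3 coats lipid droplets, and HSD17B4 and SCP2 are peroxisomal.

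With oxamate, 2 of the 43 genes were at least 1.5-fold higher, among them PPARG at 0.97, and 2 at least 1.5-fold lower, ANGPTL4 at -1.10 and FABP5 at -0.86, or 4.65% each way, close to the 4.31% and 3.82% of all genes kept. PPARG and ANGPTL4 were named after their values were seen. PPARG, the receptor that drives fat storage, was listed at 8.63 FPKM in the parental library, 1.85 in that of HepG2/metR and 4.59 after oxamate. ANGPTL4, a secreted inhibitor of lipoprotein lipase, was at 0.908, 9.36 and 3.82 FPKM. With n = 1 the spread of such values is unknown.

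Promoter composition was read for the 26 members with a RefSeq window, 43 windows in all. The 3 members with 7 or fewer CG pairs at every listed start were CD36, ACSL5 and FABP1, and all 3 were under 1 FPKM in HepG2/metR. Of the 22 other matched members that were kept, 1 was under 1 FPKM there, BDH1, which has a start with 39 CG pairs. Median log2 differences were -4.45 for the 3 and -0.81 for the 22. Windows with 7 or fewer CG pairs were 16 of the 43 windows of members and 39.3% of all windows. The limit of 7 was chosen after the values were seen, the 3 genes were kept through the parental library alone, and no test was made.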

How the data were processed

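RNA-seq libraries of 3 conditions of HepG2 cells were used, 1 per condition. The authors deposited log2 values, 1 per gene symbol and library, of the form log2(FPKM + 1), a unit inferred from the values. The submitters' processing notes name STAR 2.5.1b, FastQC 0.11.5, Cufflinks 2.2.1 and build hg19. The annotation and any filter are not given in the sources used here. The number of reads is unknown, so no interval was computed. Relative depth was taken from genes under 0.15 FPKM, as the commonest ratio between libraries.

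Symbols were matched exactly, and 28 that had become dates were left out. Differences of the deposited values were taken without further scaling. Genes with a mean of at least 1 FPKM were kept. The folds, 2-fold for HepG2/metR and 1.5-fold for oxamate, follow the study's methods. With 1 library per condition no test was possible, so lists were described by counts and medians beside all genes kept. The members and lists were chosen with earlier results of these data known. Of the other pathway genes, those named have a mean of at least 10 FPKM and pass a fold, are ketone body enzymes, or are among the 5 highest, exceptions are stated, and some are not reported here. Alternatives were other pseudocounts, filters, scalings and folds. Promoters (250 bases before to 50 after the start) are from RefSeq, GRCh38.p14, and the order of genes from the same assembly, by name. Calculations were tested on simulated libraries. Python 3.11, numpy 2.4.6, pandas 2.3.3 and matplotlib 3.10.9 were used.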

Additional observations from a re-analysis of the deposited data

How the results depend on the processing

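With n = 1 in each condition, the spread between cultures and between library preparations is unknown, and the values of low genes depend on the pseudocount. The number of members at least 2-fold lower or higher in HepG2/metR stayed within 1.5 times of 16 and 1 under all alternatives run. Their median of -1.24 became -1.45 with a pseudocount of 0.1 and -1.52 with 0.01. With oxamate, where the counts were 0, a pseudocount of 0.1 gave 1 gene higher (PPARA) and 1 lower (ACOX2), 0.01 gave 1 higher and 2 lower (with BDH1), and bringing the libraries to 1 common total gave 1 higher (PPARA). That scaling raised the median of all genes to 0.17 and turned the members' median from -0.10 to 0.029, or below the median of all genes as before. It raised the median of all genes in HepG2/metR to 0.08, and upper-quartile scaling to 0.15. Of the other pathway genes with oxamate, the 2 higher became 0 at 2-fold, 1 under median-of-ratios scaling and 4 with a common total, and the 2 lower became 1 at 2-fold and 1 at a mean of at least 5 FPKM. That filter left 3 of the 5 genes higher in HepG2/metR. No paired analysis was possible because each condition has 1 library.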

Other observations

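ETFB was examined with its neighbours because it differed so far from ETFA, a choice made after the values were seen. In the RefSeq order on chromosome 19, the nearest genes with at least 1 FPKM in the parental library were VSIG10L on one side and ZNF175 on the other. VSIG10L was listed at 3.53 FPKM in the parental library, 0.311 in that of HepG2/metR and 0.466 after oxamate, and ZNF175 at 1.20, 2.82 and 3.65 FPKM. The next gene beyond VSIG10L was CTU1, at 1.21, 1.25 and 2.01 FPKM, and the next beyond ZNF175 was ZNF649, at 3.15, 0.715 and 0.546 FPKM. The outermost of the 3 on each side were SNAR-F, at 36.7 FPKM in parental cells and listed at 0 in both others, and ZNF613, at 2.78, 0.810 and 1.16 FPKM. Past 2-fold downwards in HepG2/metR were VSIG10L, SNAR-F, ZNF649 and ZNF613, each under 1 FPKM there, while CTU1 differed by 0.03 and ZNF175 by 0.80. Neighbours were taken by their parental level, so genes high only in HepG2/metR were passed over, which favours lower values. Over all genes kept, 17.6% were at least 2-fold lower. What lies behind the differences around ETFB was not tested.

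Of 10 regulators and their targets in the list of other pathway genes, 7 were kept. In HepG2/metR 4 of the 7 were past 2-fold downwards, against 17.6% of all genes kept. The 1 past it upwards was ANGPTL4, which is counted as a target, against 16.6% of all genes kept. PPARGC1A, a coactivator of oxidative genes, was listed at 3.77 FPKM in parental cells, at 0 in HepG2/metR and at 0.0161 with oxamate. RXRA, the partner receptor, was at 14.5, 4.57 and 5.40 FPKM, and CREB3L3, a liver factor of the fasting response, at 3.04, 0.0294 and 0.0412 FPKM. PPARD, the related receptor expressed in most tissues, was at 11.9, 13.4 and 12.0 FPKM. PPARGC1B, a further coactivator, was at 0.588, 0.705 and 0.817 FPKM and was not kept. PPARGC1A and CREB3L3 were kept through the parental library alone, so they had to differ. These genes were named after their values were seen.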
